A study of Mus musculus with 4 samples.

Results

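The genes described here are the 4 Janus kinases (Jak1, Jak2, Jak3 and Tyk2), 5 of the STAT transcription factors (Stat3, Stat4, Stat5a, Stat5b and Stat6) and Socs3, an inhibitor that STATs induce. They were taken by symbol from the deposited count table. All 10 were found among its 37411 genes, and all 10 were among the 13571 genes with enough counts to be tested. RNA was sequenced from primary cultures of osteocyte-enriched femoral cells, in 2 libraries from mice that lack PPARα throughout the body (αKO) and 2 from wild-type mice (WT). In the αKO animals a resistance cassette replaces part of a coding exon of Ppara in every cell, not only in bone. The labels give C57BL/6 mice of 5 months, no treatment and 6 days of growth ex vivo for all 4 libraries, while the methods text differs on age, culture time and background strain. The deposited comparison between the genotypes carries DMSO in its name on both sides. The labels name the libraries biological replicates without saying whether they came from separate animals, so the p-values measure the spread between these libraries.

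Many cytokine receptors have no kinase of their own and rely on JAKs bound to their tails. When a ligand joins the receptor chains, the JAKs phosphorylate the receptor and the STATs that dock there, and the STATs pair, enter the nucleus and bind DNA, often at palindromes of the form TTCNNNGAA. SOCS genes are among those they induce, and SOCS proteins shut the receptor down again. In bone, cytokines of the interleukin 6 family act on osteoblasts and osteocytes through JAK1 and STAT3, growth hormone acts through JAK2 and STAT5, and JAK3 works mainly in blood cells, with receptors that share the common gamma chain.

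The members lie on 7 mouse chromosomes, with Jak3 at chr8:71676296-71690575, Tyk2 at chr9:21104068-21131243, Jak2 at chr19:29251828-29313080, Jak1 at chr4:101152367-101265282, Stat4 at chr1:51987148-52107189 and Stat6 at chr10:127642986-127660957 of GRCm38. Stat5b, Stat5a and Stat3 lie side by side on chromosome 11, from 100780731 to 100939540 of GRCm38. Stat5b and Stat5a point away from each other across a gap of 8626 bases, and the last 72 bases of Stat5a overlap the end of Stat3 on the other strand. The coding sequences of Stat5a and Stat5b were identical at 90.8% of aligned bases and shared an unbroken run of 324 bases. The stretch from coding base 835 to 954 of each (GENCODE transcripts Stat5a-203 and Stat5b-202) is shown here because reads from it cannot be told apart except across the single capital, the only base of the 120 at which the genes differ.
Stat5a: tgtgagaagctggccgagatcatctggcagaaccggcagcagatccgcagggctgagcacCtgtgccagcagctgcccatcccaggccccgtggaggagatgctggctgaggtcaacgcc
Stat5b: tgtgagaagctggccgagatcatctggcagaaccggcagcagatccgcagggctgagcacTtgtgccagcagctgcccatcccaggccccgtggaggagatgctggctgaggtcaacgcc
Over whole transcripts, 8.21% of the 50-base words of Stat5a and 11% of those of Stat5b occurred in the other gene, so part of each count is uncertain if reads were split between them. Stat4 shared 21.7% of its words with the noncoding gene Gm28177, which had 0 to 2 counts, and Jak3 shared 6.93%, mostly with Insl3, which had 0. On the same strand, Stat4 overlaps Gm28177 by 29929 bases and Jak3 overlaps Insl3 by 1362. Low counts of such a gene do not settle how reads in the overlap were assigned. Stat6 overlaps Nab2 by 40 bases on the other strand, and Nab2 had 573 to 2080 counts. Tyk2 overlaps the antisense gene 1700084C06Rik by 24326 bases, and that gene had 1 to 8 counts. The strand setting of the counting is not given in the sources used here.

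The promoter of Socs3 is shown because Socs3 is the member that STATs induce, with the match to TTCNNNGAA in capitals. The window runs from 250 bases before the RefSeq start to 50 after it, chr11:117969317-117969616 of GRCm38.p6 on the minus strand.
Socs3: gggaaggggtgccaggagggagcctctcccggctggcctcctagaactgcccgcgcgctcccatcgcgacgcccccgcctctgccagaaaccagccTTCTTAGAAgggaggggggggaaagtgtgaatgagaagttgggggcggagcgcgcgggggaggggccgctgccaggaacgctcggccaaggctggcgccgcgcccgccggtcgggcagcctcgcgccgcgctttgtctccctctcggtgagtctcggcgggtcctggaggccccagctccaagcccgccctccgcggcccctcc
The match began 154 bases before the start. The motif reads the same on both strands, and 8.3% of all 32851 promoters of this length held it. No match was found in the windows of the other 9 members, which says only that these letters are absent there.

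The libraries held 27496137 and 25136628 counts in αKO replicates 1 and 2, and 25462028 and 25687940 counts in WT replicates 1 and 2. Replicates 1 and 2 stood apart within each genotype along the GC content of the transcripts. Ppara itself had 15 and 9 counts in αKO against 16 and 13 in WT libraries, too few to check the genotype. Only part of a coding exon is replaced in αKO, so a count over the whole gene need not fall there at any depth. The cultures held macrophage RNA: all 20 macrophage markers had a log2 fold change above 0 in αKO over WT, though Cybb, Msr1 and Cx3cr1 overlapped between the genotypes. The summed level of the 20 was 32580 and 27080 CPM in αKO against 21320 and 12630 CPM in WT replicates 1 and 2 (CPM, counts per 1000000 counts of the library, with library sizes scaled by TMM). None of the 20 was at 0. Of 11 osteoblast markers 10 had a log2 fold change below 0, as had 4 of 5 osteocyte markers with enough counts. Sost and Fgf23 were at 0 in all 4 libraries. The sum of the osteoblast markers differed less, at 24870 and 21730 CPM in αKO against 27720 and 24890 CPM in WT replicates 1 and 2. Spp1 alone gave 15090 of these CPM in αKO replicate 1 and 13760 in WT replicate 1, so the sum mainly describes that gene. The median log2 fold change was -1.2 over the 11 osteoblast markers and 0.95 over the 20 macrophage markers. Runx2 and Sp7 were lower in both αKO libraries. For Ibsp (139 and 117 against 1119 and 124.5 CPM) and Postn (1235 and 700 against 4540 and 681 CPM), only WT replicate 1 stood high. RNA of T and NK cells was near the floor, with summed markers at 2.33 and 2.06 CPM in αKO and 2.14 and 2.27 CPM in WT, and Cd3e, Cd3d and Cd3g at 0 throughout. In such mixed cultures, fewer cells of a type and less RNA per cell cannot be told apart.

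The members differed widely in abundance. In the deposited TPM values, which take gene length into account, Jak1 had the highest mean over the 4 libraries, 171 TPM (range 145 to 209), and Stat6 followed with 162 TPM (150.5 to 181). Their ranges overlapped, so the order of these 2 is not settled. Both were above more than 92% of all tested genes. Stat3, the main STAT of interleukin 6 signals, came next with 71.7 TPM (58.7 to 81.0), apart from Stat6. From Stat3 down through Jak2 (40.3 TPM), Socs3 (35.9), Tyk2 (27.1), Stat5b (21.3) and Stat5a (16.3), the range of each gene overlapped that of the next. Jak3 stood below this group with 6.37 TPM (2.99 to 9.71), and Stat4, which conveys interleukin 12 signals in lymphocytes and myeloid cells, was lowest with 1.14 TPM (0.269 to 2.07).

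Jak1 thus made up most of the JAK transcripts, from 66.6% to 72.1% of the summed JAK TPM in αKO and from 69.6% to 70.8% in WT libraries. Jak3 contributed 3.05% and 4.46% in αKO, against 0.998% and 2.44% in WT replicates 1 and 2. Jak2 contributed 13.7% and 11.9% in αKO, against 23.8% and 14.2% in WT. Among the summed TPM of the 5 STATs described here, Stat6 was the largest part in each library, at 61.3% and 59.96% in αKO and 59.2% and 57.2% in WT replicates 1 and 2. Stat5b contributed 8.25% and 10.4% in αKO, against 5.597% and 6.95% in WT, and Stat3 24.2% and 22.01% in αKO, against 29.7% and 29.6% in WT. Stat4 contributed 0.701% and 0.463% in αKO, against 0.389% and 0.0983% in WT. Both αKO shares lay above both WT shares for Stat6, Stat5b and Stat4 and below both for Stat3, and those of Stat5a overlapped. The shares make up a fixed total, so a lower share of Stat3 goes with higher shares of others. The CPM of Stat3 overlapped between the genotypes.

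Between the genotypes, 8 of the 10 members had a log2 fold change above 0 and 2 below, with a median of 0.38, against 49.2% of all tested genes above 0 and a median of -0.008. In 6 members both αKO libraries lay above both WT libraries (Jak3, Tyk2, Stat4, Stat5a, Stat5b and Stat6), and in 0 members both lay below, where the shares over all tested genes were 17.1% and 16%. None passed edgeR's quasi-likelihood test at an adjusted p of 0.05, with Benjamini-Hochberg adjustment over all genes, and neither did any other gene (0%). At an unadjusted p under 0.05 there was 1 member, Jak3, against 5.39% of all genes. After adjustment 0 members passed DESeq2, where 0.368% of all genes did, edgeR's likelihood ratio test (0.206%) or limma voom (0%). A split of 2 libraries against 2 allows no p below 0.33 in an exact permutation test, so single levels were not tested that way.

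The count of members at an unadjusted p under 0.05 changed with the libraries used. Fewer members, and also fewer of all genes, reached this p when either αKO library was left out. When WT replicate 2 was left out there were 5 (Jak2, Jak3, Tyk2, Stat5b and Socs3), but so were 22.8% of all genes. When WT replicate 1 was left out there was 1, Stat4, against 20.8%. These fits take the lone library of a genotype to vary like the pair of the other.

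**Figure D1:**
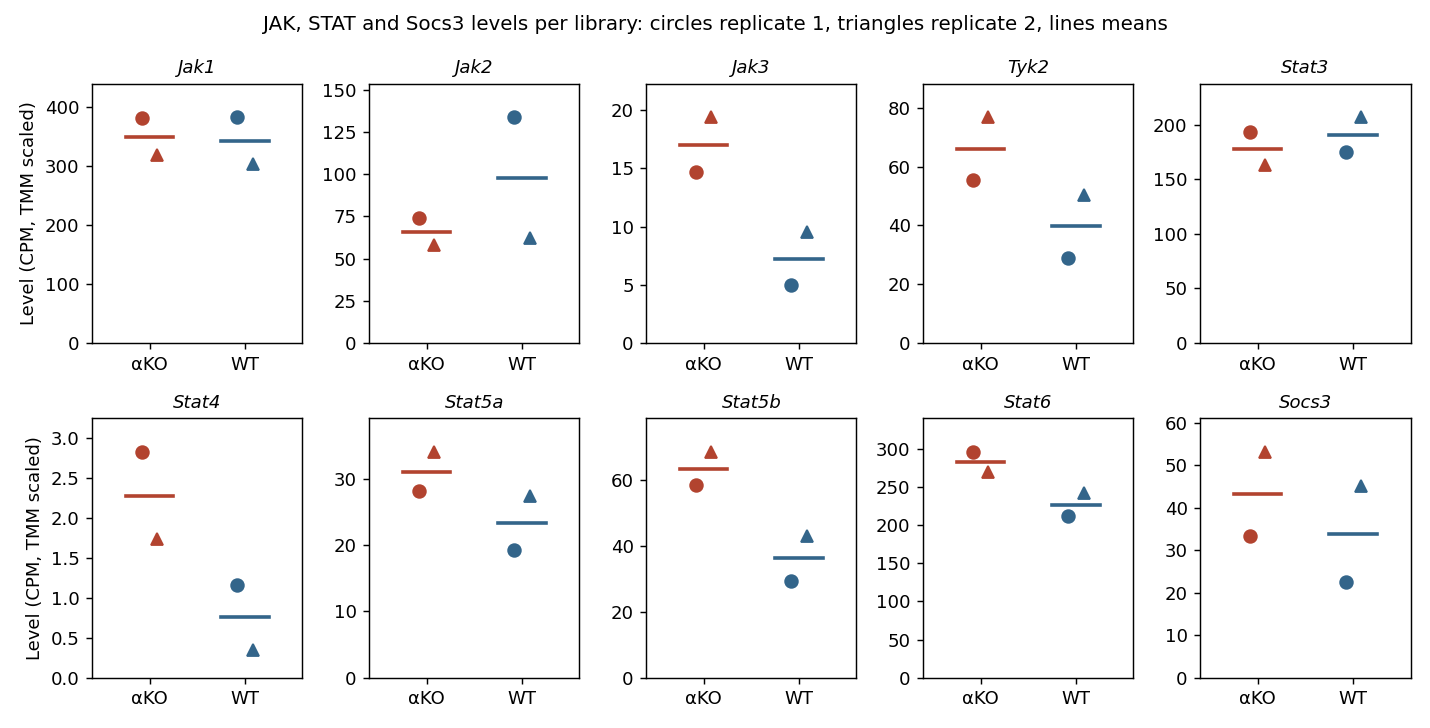
Level of each of the 10 members in CPM (y axis, from 0) in αKO and WT libraries (x axis). Circles are replicate 1, triangles replicate 2 and lines the mean of 2 libraries. Jak3, Tyk2, Stat4, Stat5a, Stat5b and Stat6 have both αKO libraries above both WT libraries, while the genotypes overlap for Jak1, Jak2, Stat3 and Socs3.

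Jak3, the kinase of the common gamma chain receptors, had 14.7 and 19.4 CPM in αKO replicates 1 and 2, against 4.98 and 9.51 CPM in WT replicates 1 and 2. Both αKO libraries were above both WT libraries, and within each genotype replicate 2 was the higher one. The mean was 17.0 ± 3.32 CPM in αKO and 7.24 ± 3.20 CPM in WT (SD, n = 2 each). Jak3 was 2.35-fold higher in αKO (log2 fold change 1.23, SE 0.47, unadjusted p = 0.0453, adjusted p = 0.912 by the quasi-likelihood test of edgeR). With WT replicate 2 left out, the log2 fold change was 1.73 and Jak3 passed the same edgeR test (adjusted p = 0.0395), along with 4.88% of all genes. With WT replicate 1 left out it was 0.86 (adjusted p = 0.243), where 5.74% of all genes passed.

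Tyk2, which serves interferon, interleukin 10 and interleukin 12 receptors, had 55.4 and 76.7 CPM in αKO and 28.9 and 50.5 CPM in WT replicates 1 and 2. The higher WT library was less than 5 CPM below the lower αKO library. Tyk2 was 1.67-fold higher in αKO, at a log2 fold change of 0.74 (SE 0.40, unadjusted p = 0.125). Leaving out WT replicate 1 gave 0.41, and leaving out WT replicate 2 gave 1.16 (unadjusted p = 0.00421).

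Jak2, the kinase of growth hormone, erythropoietin and colony-stimulating factor receptors, had 74.1 and 58.0 CPM in αKO and 134 and 62.2 CPM in WT replicates 1 and 2. WT replicate 1 stood alone above the other 3 libraries, which spanned 58.0 to 74.1 CPM. The log2 fold change was -0.57 (SE 0.45, unadjusted p = 0.257), and it hung on that library: leaving it out gave 0.11, and leaving out the other WT library gave -1.06. Jak1, which works with nearly every class of cytokine receptor, had 381 and 317 CPM in αKO and 382 and 303 CPM in WT. The libraries of one number were closer to each other than those of one genotype, and the log2 fold change was 0.03 (SE 0.30).

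Among the STATs, Stat5b was the one with the smallest p. It had 58.4 and 68.5 CPM in αKO, against 29.4 and 43.1 CPM in WT replicates 1 and 2, so that even the lower αKO library exceeded the higher WT library by more than 15 CPM. The mean was 63.5 ± 7.13 CPM in αKO and 36.3 ± 9.72 CPM in WT (SD, n = 2 each). Stat5b was 1.75-fold higher (log2 fold change 0.81, SE 0.34, unadjusted p = 0.0609, adjusted p = 0.932 in edgeR's quasi-likelihood test), and between 0.58 and 1.07 with 1 library left out. Its neighbor Stat5a had 28.1 and 34.0 CPM in αKO and 19.2 and 27.4 CPM in WT. The genotypes were separated by less than 1 CPM, and the log2 fold change was 0.41 (SE 0.35, unadjusted p = 0.291).

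The ratio of Stat5b to Stat5a in TPM was 1.49 and 1.45 in αKO, against 1.10 and 1.13 in WT replicates 1 and 2. The 2 libraries of each genotype thus lay within 0.05 of each other, and both αKO ratios were above both WT ratios. The ratio of Stat6 to Stat3 was 2.53 and 2.72 in αKO, against 1.99 and 1.93 in WT. These 2 ratios were chosen after the values were seen and carry no test.

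Stat6, the factor of interleukins 4 and 13, had 296 and 270 CPM in αKO and 212 and 242 CPM in WT replicates 1 and 2. Both αKO libraries were higher by a small margin, at a log2 fold change of 0.32 (SE 0.28, unadjusted p = 0.302) that stayed between 0.25 and 0.39 with 1 library left out. Stat3 had 193 and 163 CPM in αKO and 175 and 207 CPM in WT. The genotypes overlapped, and its log2 fold change was -0.10 (SE 0.29).

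Stat4 rested on few reads, with 74 and 43 counts in αKO against 31 and 9 counts in WT replicates 1 and 2. That is 2.82 and 1.73 CPM in αKO, against 1.161 and 0.346 CPM in WT. All 4 libraries held some Stat4, and both αKO libraries held more than either WT library. It was 3.01-fold higher in αKO (log2 fold change 1.59, SE 0.75, unadjusted p = 0.0856). This value was 2.72 when WT replicate 1 was left out and 0.93 when WT replicate 2 was.

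Socs3, which binds gp130 and blocks JAKs there, had 33.4 and 53.0 CPM in αKO and 22.5 and 45.1 CPM in WT replicates 1 and 2. The genotypes overlapped, and replicate 2 was the higher library in both. The log2 fold change was 0.35 (SE 0.47, unadjusted p = 0.485). Leaving out WT replicate 2 gave 0.91, but leaving out WT replicate 1 gave -0.04 and leaving out αKO replicate 2 gave -0.005, so its sign was not settled.

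**Figure D2:**
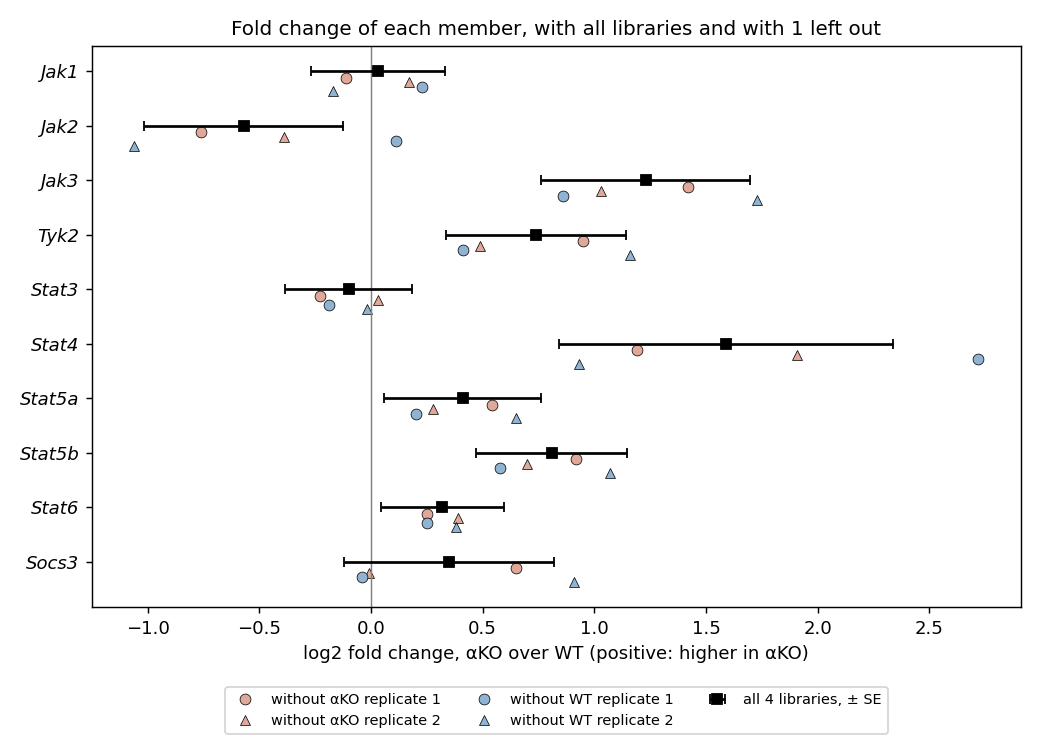
Log2 fold change of each member, αKO over WT (x axis), with all 4 libraries (black squares, bars ± SE) and with 1 library left out (coloured marks). The marks for Jak3, Tyk2, Stat4, Stat5a, Stat5b and Stat6 all lie above 0, between 0.20 and 2.72, and those for Jak1, Jak2, Stat3 and Socs3 fall on both sides.

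The spread within each genotype followed the GC content of the transcripts. Stat4 and Jak2, the members with the lowest GC content (43.9% and 44.2%), were higher in replicate 1 than in replicate 2, by 0.68 and 0.35 on the log2 scale in αKO and by 1.55 and 1.10 in WT. Jak3 and Socs3, with the highest (60.8% and 60.4%), went the other way, by -0.40 and -0.67 in αKO and by -0.92 and -1.0 in WT. Across the 10 members, which share the same 4 libraries, the difference of replicate 1 over 2 had a Spearman's rho with GC content of -0.93 in αKO and -0.90 in WT. Over all 13141 tested genes with a known GC content this rho came to -0.609 in αKO and -0.736 in WT. The genotype difference, αKO over WT, had a rho of 0.27 across the members and of 0.228 across all genes. A correlation across genes describes these libraries, since genes are not independent replicates.

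With the trend of each library along GC content taken out, the log2 fold change was 0.93 for Jak3, 0.58 for Tyk2, 0.71 for Stat5b, 1.87 for Stat4 and 0.04 for Socs3. At an unadjusted p under 0.05 there were then 4 members (Jak3, Tyk2, Stat4 and Stat5b), against 12.2% of all genes, and again none after adjustment. Taken within a replicate number, 7 of 10 members were higher in αKO in both pairs (30.5% of all genes) and 1 was lower in both, Jak2 (27%). Jak3 was higher by 1.54 on the log2 scale in replicate 1 and by 1.02 in replicate 2, and Stat5b by 0.99 and 0.67.

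**Figure D3:**
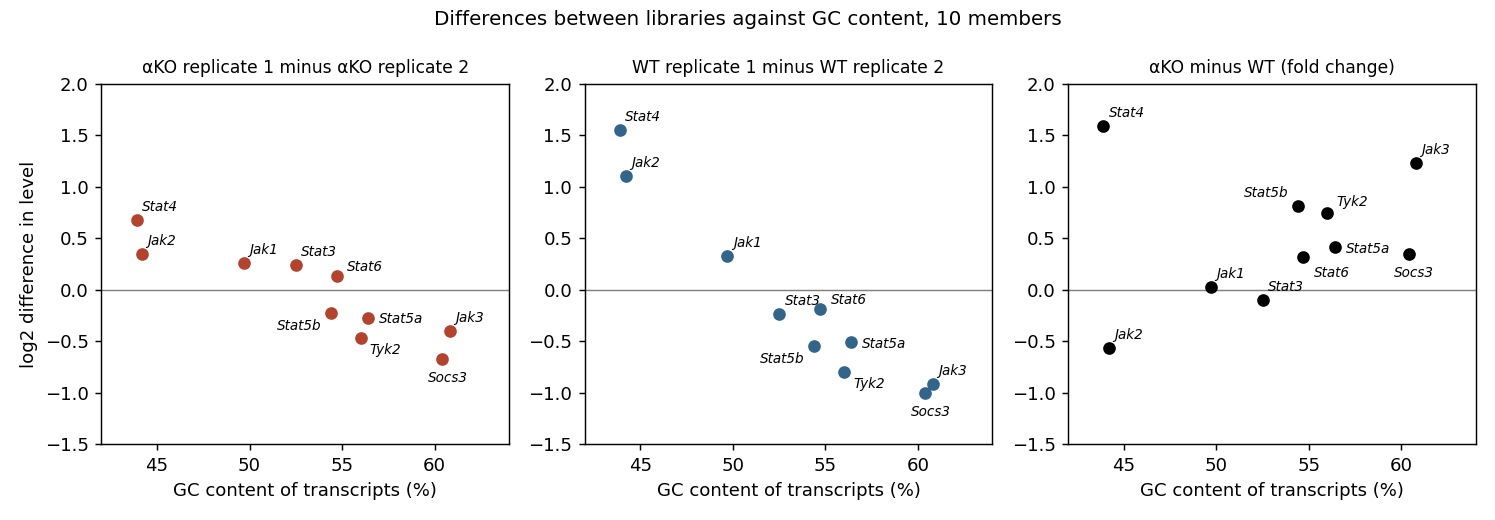
Difference in log2 level of the 10 members (y axis) against the GC content of their transcripts in percent (x axis), for αKO replicate 1 minus 2, WT replicate 1 minus 2, and αKO minus WT. The replicate differences slope down from Stat4 (0.68 and 1.55) to Socs3 (-0.67 and -1.0), and in the genotype differences Stat4 at 1.59 and Jak3 at 1.23 stand high at opposite ends.

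Since macrophage RNA also differed between the genotypes, each member was set against the summed counts of the 20 macrophage markers in the same library. On this scale Jak1, Jak2 and Stat3 were below WT in both αKO libraries, with differences of the genotype means of -0.82, -1.33 and -0.96 in log2. Stat4 was above WT in both αKO libraries, by 0.95. The other 6 overlapped. Dividing by a sum that was higher in αKO lowers every gene there relative to WT. Genes with little difference in CPM thus fall below WT, as did Jak1 (log2 fold change 0.03 in CPM) and Stat3 (-0.10). How many of all genes lay below or above WT on this scale was not counted. Lyz2 alone gave 525444 of the 854914 marker counts in αKO replicate 1 and 221238 of 328250 in WT replicate 2. Jak3 lay at -11.12 and -10.45 in αKO against -12.06 and -10.38 in WT replicates 1 and 2, and Stat5b at -9.12 and -8.63 against -9.50 and -8.19. The part of macrophage RNA in the higher levels of Jak3, Tyk2, Stat5a, Stat5b and Stat6 was not tested beyond this ratio.

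The rest of the pathway was described by lists drawn up from general knowledge, but with earlier results of these data known. Of 135 genes 93 were tested, 52 of them with a log2 fold change above 0 and 41 below (median 0.11), and 0 passed edgeR's quasi-likelihood test at an adjusted p of 0.05 (Benjamini-Hochberg). At an unadjusted p under 0.05 there were 9 higher and 3 lower, against 2.81% and 2.59% of all genes. DESeq2 passed 1 of the 93 after adjustment, Il21r, where 0.368% of all genes passed. The part of macrophage RNA in the differences of receptors, inhibitors and other listed genes was not tested.

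**Figure D4:**
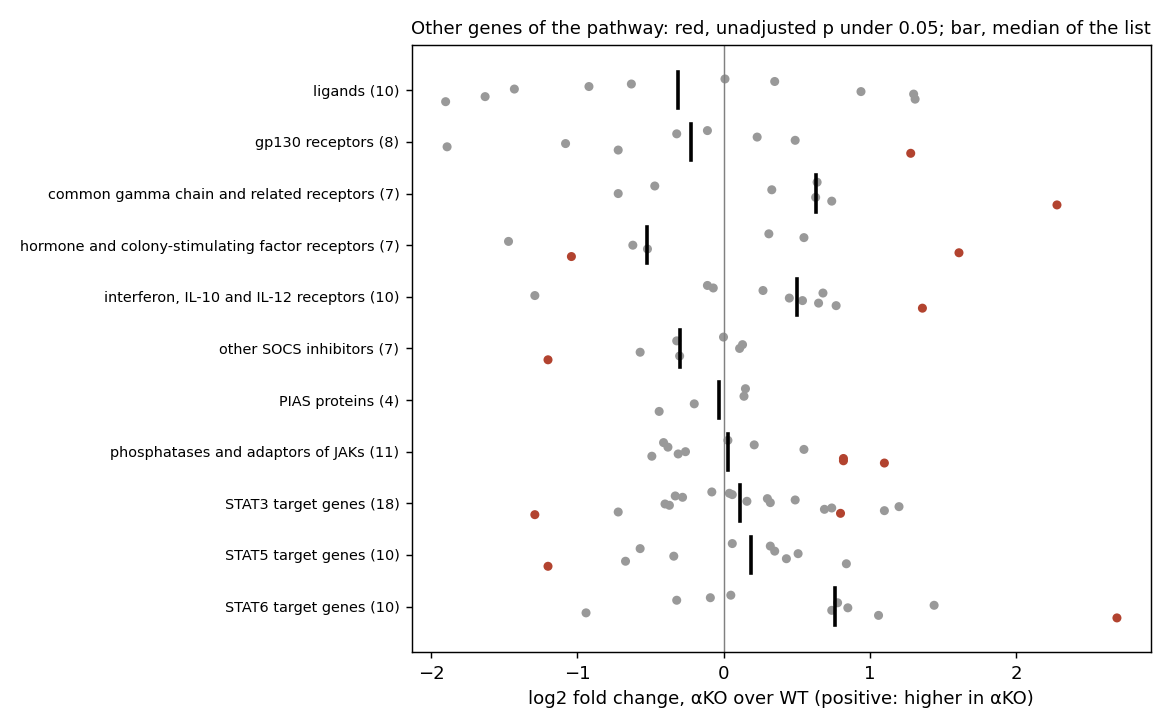
Log2 fold change of αKO over WT (x axis) for the tested genes of each list (y axis, number tested in parentheses). Each point is a gene, red where the unadjusted p was under 0.05, and black bars are medians. The list of STAT6 targets has 7 of its 10 points above 0 and a median of 0.76 (0.046 at a minimum count of 50), and the ligands spread to both sides.

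Among the receptors, Il21r, which signals through JAK1 and JAK3 with the common gamma chain, had 57.5 and 50.8 CPM in αKO, against 16.1 and 6.16 CPM in WT replicates 1 and 2. Each αKO library held over 3 times the level of either WT library. Its log2 fold change was 2.28 (SE 0.54), and the adjusted p was 0.902 by edgeR's quasi-likelihood test and 0.0284 by DESeq2. Of 7 tested receptors of this group 5 were higher, with a median of 0.63 that was 0.22 without αKO replicate 1 and 0.39 without WT replicate 2. The shared chain Il2rg had 2202 and 1255 counts in αKO against 1335 and 963 counts in WT, and Il4ra, the receptor that feeds STAT6, 246 and 194 CPM against 84.8 and 179 CPM.

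Receptors of the interleukin 6 family divided, with 3 of 8 higher and a median of -0.22 that was 0.71 without WT replicate 2. Il6ra, the interleukin 6 receptor, had 68.5 and 67.2 CPM in αKO against 37.1 and 18.6 CPM in WT, while Osmr, the oncostatin M receptor, had 45.0 and 40.2 CPM against 82.0 and 58.7 CPM. Neither pair overlapped (unadjusted p = 0.0274 for Il6ra and 0.0713 for Osmr). Of 7 hormone and colony-stimulating factor receptors, most of which use JAK2, 3 were higher and 4 lower, a split near that of all genes. Their median was -0.52, and -0.34 and -0.25 with WT replicates 1 and 2 left out in turn. Csf2rb2, a mouse receptor chain for interleukin 3 that resembles Csf2rb, had 72.8 and 63.4 CPM in αKO against 122 and 158 CPM in WT (unadjusted p = 0.0166). The growth hormone receptor Ghr had 34.4 and 35.02 CPM against 52.7 and 46.9 CPM. Csf3r, the receptor of granulocyte colony-stimulating factor, went the other way, with 18.2 and 14.9 CPM in αKO against 7.90 and 2.96 CPM in WT.

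Of 10 receptors of interferons, interleukin 10 and interleukin 12, 7 were higher with no overlap between the genotypes, against 17.1% of all genes (median 0.50). Il10ra encodes a chain of the interleukin 10 receptor, which signals through JAK1 and TYK2. It had 82.9 and 75.4 CPM in αKO against 41.7 and 19.9 CPM in WT (unadjusted p = 0.0254 in edgeR's quasi-likelihood test). Ligands were scarce: of 31, 10 had enough counts, and others such as Il2, Il9, Il13 and Ifng were at 0 in all 4 libraries. Lif, a cytokine that uses gp130, had 6.10 and 3.19 CPM in αKO against 5.06 and 29.6 CPM in WT replicates 1 and 2, and Il6 13 and 5 counts against 12 and 45. For both it was WT replicate 2 that stood out.

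Inhibitors were mixed. Of 7 other SOCS genes 2 were higher and 5 lower. Their median of -0.30 was -0.16 without αKO replicate 1, and -0.52 and -0.05 with WT replicates 1 and 2 left out in turn. Socs2, a STAT5 target that restrains growth hormone signals, had 5.18 and 6.05 CPM in αKO against 11.8 and 14.1 CPM in WT. It was lower in both αKO libraries (log2 fold change -1.20, SE 0.38, unadjusted p = 0.0226), whereas Cish, another STAT5 target, had 1.91 and 2.78 CPM against 1.20 and 5.77 CPM and overlapped. The phosphatase gene Ptpn6, which encodes SHP-1 of blood cells, had 335 and 318 CPM in αKO against 167 and 139 CPM in WT, and Ptpn1, whose product acts on JAK2 and TYK2, 205.5 and 222 CPM against 99.2 and 143 CPM. Sh2b3, an adaptor that dampens JAK2, had 82.1 and 100.6 CPM against 48.7 and 55.0 CPM. These 3 had an unadjusted p of 0.0109, 0.047 and 0.0366. The list of phosphatases and adaptors had 6 of 11 higher and a median of 0.03, which was below 0 with library sizes alone (-0.036). Both αKO libraries lay above both WT libraries in 3 of the 11 (17.1% of all genes) and below in 3 (16%). The 4 PIAS genes, inhibitors of STAT binding, had a median of -0.03.

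The target genes of each factor were counted in the same way. Of 18 tested STAT3 targets 11 were higher (median 0.11), with Timp1, an inhibitor of matrix proteases, at 400 and 325 CPM in αKO against 567 and 1211 CPM in WT, and Icam1, an adhesion protein gene, at 58.8 and 58.3 CPM against 38.2 and 28.9 CPM. Of 10 STAT5 targets 6 were higher (median 0.19, and -0.02 without WT replicate 1 and -0.09 without αKO replicate 2). Of 10 tested STAT6 targets 7 were higher, with a median of 0.76 that was 0.046 at a minimum count of 50, where genes with few reads drop out. Both αKO libraries lay above both WT libraries in 5 of the 10 (17.1% of all genes) and below in 1 (16%). The lower one was Clec7a, with 132 and 175 CPM in αKO against 407 and 182 CPM in WT replicates 1 and 2. Mgl2, a lectin gene of macrophages and dendritic cells, had few reads, with 17 and 70 counts in αKO against 9 and 5 in WT. Arg1 had 0 to 8 counts and Retnla 0 in every library. Mrc1, among the tested 10, is also on the macrophage list, and the part of macrophage RNA in these differences was not tested.

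The genes most like each member in pattern over the 4 libraries were sought among those with a mean of at least 10 CPM, by the Euclidean distance of centred log2 levels. For Jak3 they were Kcnn4 (distance 0.0678) and Fermt3 (0.0932), for Stat5b Bcl2l1 (0.065) and Cdk18 (0.0794), and for Stat4 Aoah (0.152) and Pdk1 (0.182). For Jak2 they were Mfsd8 (0.0464) and Erlec1 (0.0616), and for Socs3 Adamts2 (0.0162) and 2210016L21Rik (0.021). The closest pair of members was Tyk2 and Stat5b, at 0.253. The search ran over 9403 genes (9404 for Stat4) in 4 libraries, and a short distance says no more than that the levels ran alike.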

How the data were processed

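RNA sequencing of 4 libraries was analysed, 2 αKO and 2 WT. The authors trimmed reads with Trimmomatic 0.35 and deposited raw counts per gene of mm10 made with HTSeq 0.9.1, tested by them with DESeq2 1.16.1 in R 3.4.0. These names and versions are from the submitters' processing notes. The aligner, gene annotation and the gene lengths behind TPM are not given in the sources used here. Also deposited were TPM values, used only to compare levels between genes, and the authors' normalized counts and comparison (base mean, log2 fold change, error, p and adjusted p), which were not used. Genes were kept by filterByExpr (minimum count 10), scaled by TMM and tested by the quasi-likelihood test of edgeR 4.0.16 in R 4.3.3, with genotype as the only term and p adjusted by Benjamini-Hochberg over all 13571 genes kept. Genes, motifs and GC content came from GENCODE M21 and RefSeq (GRCm38). All 10 members were matched to RefSeq promoters. The code was tested on simulated data. All 10 members are described in full, with up to 4 genes of smallest p per list and 2 nearest genes by pattern for single members; genes near 0 that the text names were picked after their values were seen. Members and lists were chosen with earlier results of these data known. Alternatives were DESeq2 1.42.0, the likelihood ratio test, limma 3.58.1 voom, other scalings and filters, a replicate block, a GC offset and leaving out each library. Some genes and lists of the pathway are not reported here.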

Additional observations from a re-analysis of the deposited data

How the results depend on the processing

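Over 14 alternatives, the members' fold changes kept their sign and their side of the adjusted p threshold in 131 of 139 values. With all libraries, the smallest adjusted p over all genes was 0.9023 by edgeR's quasi-likelihood test. Keeping the side of that threshold therefore says little, and the 131 values mainly describe the sign. Calls by unadjusted p did move. For Jak3 this p was 0.0453 by that test and 0.0537 with library sizes alone, which was counted as the same. Stat4 had too few counts at a minimum count of 50. Jak3 passed without WT replicate 2 (log2 fold change 1.73). With 1 library left out, signs turned for Jak1 (range -0.17 to 0.23, below 0 without αKO replicate 1, at -0.11, and without WT replicate 2, at -0.17), Jak2 (-1.06 to 0.11, above 0 without WT replicate 1), Stat3 (-0.23 to 0.027, above 0 without αKO replicate 2) and Socs3 (-0.038 to 0.91, below 0 without WT replicate 1 and, at -0.005, without αKO replicate 2). Library sizes alone gave -0.06 for Jak1. The cause was not tested.

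Genes past an adjusted p of 0.05 numbered 0 by the quasi-likelihood test of edgeR (732 at an unadjusted p under 0.05), 50 by DESeq2 and 28 by the likelihood ratio test, and 1 to 806 with 1 library left out (806 and 678 without WT replicates 1 and 2). At an unadjusted p under 0.05 they numbered 1597 with the GC offset and 233 to 3171 with 1 library left out. Members at this p numbered 1, against 0 with library sizes alone, 4 with the GC offset and 0 to 5 with 1 library left out. With the replicate number as a block, 1 gene passed after adjustment, 1501 genes (11.1%) and 4 members (Jak3, Tyk2, Stat4 and Stat5b) had an unadjusted p under 0.05, and with block and GC offset 1779 and 4. Deviations of same-numbered libraries from their genotype means correlated across genes at 0.487, but the labels tie nothing to the number and there are only 2 pairs. The number of members higher in αKO was within 1.5 times of 8 throughout.

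Median signs also turned, with 1 library left out, for ligands (-0.32 to 0.09, at 0.06 and 0.09 without WT replicates 1 and 2), gp130 receptors (-0.30 to 0.71), STAT3 targets (-0.09 to 0.53), STAT5 targets (-0.09 to 0.29, at -0.021 without WT replicate 1) and phosphatases and adaptors (-0.23 to 0.20, with -0.011 without αKO replicate 1 and -0.11 without WT replicate 2). They also turned for ligands at a minimum count of 50 (0.004), PIAS genes with voom and with the replicate block (both 0.004), and phosphatases and adaptors with library sizes alone (-0.036), the GC offset and the replicate block with GC offset (both -0.07). At a minimum count of 50 the median of STAT6 targets was 0.046. Depth limits Stat4, with 9 to 74 counts in each library, more than the other 9 members.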
